A study of Oryza sativa Indica Group with 6 samples.

Results

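The homeobox genes of rice with names of the HOX, WOX and KNOX series were followed through 3 stages of pollen development. Members were genes whose symbol or synonym in the RefSeq gene table was HOX, WOX, OSH or HOS followed by digits, with or without an Os prefix and a closing letter. This rule found 47 genes, of which 46 are homeobox genes, and the remaining one is a histone H2B gene (H2B.7, also OsH2B) that matched by spelling and is described apart at the end. Of the 46 homeobox genes 42 were measured, by 53 probe sets paired with 1 gene each, among 57194 probe sets tested and 17905 genes measured in all. HOX3, WOX5, OSH10 and OSH15 had no probe set of their own in the annotation used here, and the probe set of OSH15 is paired with several genes. The rule uses no measured values.

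Homeobox genes encode transcription factors that bind DNA through a homeodomain. In HD-Zip proteins the homeodomain is followed by a leucine zipper, through which the proteins pair. Class I of this family is known for responses to water deficit and for organ growth, class II for auxin and shade responses and for repressing transcription, and class III for the upper side of leaves, vascular tissue and meristems, under control of the microRNA miR166. WOX proteins are best known for keeping stem cells in shoot and root meristems, and class I KNOX proteins for keeping the shoot meristem undifferentiated, whereas class II KNOX genes are active in many differentiated organs.

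The RNA came from the male gametophyte of field-grown plants of Oryza sativa Indica Group, variety Guichao No.2, with no mutation or treatment named in any group. Uninucleate microspores (UNM) hold a single nucleus, bicellular pollen (BCP) a vegetative and a generative cell, and tricellular pollen (TCP) a vegetative cell and sperm cells. Every stage was measured on 2 Affymetrix arrays, 1 for each replicate, and all levels below are log2 signals of probe sets, which are groups of short probes against the same transcript. A probe set is said to rise or fall where the limma difference between stage means was at least 1 on the log2 scale with a Benjamini-Hochberg adjusted p under 0.05, adjusted over all 57194 probe sets. Differences are given on the log2 scale with their standard error (SE), and every comparison rests on 2 arrays against 2, a number that limits the precision.

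Replicate arrays had Pearson's r between 0.985 and 0.993 over all probe sets tested, and probe sets are no independent replicates. Background was taken on each array as the 95th percentile of 64 reporter probe sets for genes that rice lacks. It was 5.22 and 5.00 on the UNM arrays, 5.60 and 5.70 in BCP and 5.72 and 5.84 in TCP. A stage is called above background where both its arrays exceed that level. The signal at the 3′ end exceeded that in the middle of the actin transcript by 3.10, 1.87 and 1.91 in UNM, BCP and TCP, and of GAPDH by 1.0, 1.01 and 1.55, a sign of RNA quality whose part in the results was not tested. Of the marker genes of pollen, all 7 measured rose from UNM to BCP, and their summed linear signal was 724 and 940 on the UNM arrays, between 34554 and 36485 in BCP and between 32706 and 35748 in TCP. Of 11 measured markers of the anther wall, the tissue around the microspores, 8 fell from UNM to BCP, when 25.1% of all genes fell and 17.1% rose, counted with 1 probe set per gene. Their summed signal was 6484 and 6674 on the UNM arrays, 484 and 517 in BCP and 231 and 253 in TCP, and 9, 1 and 0 of the 11 were above background at the 3 stages. The markers above background in UNM included C4, C6, CP1 and AP25. Of 5 markers of green tissue 2 fell from UNM to BCP, CAB2R by 6.80 and LHCP by 1.34. Of the others rca and OsrbcS rose from UNM to TCP as deposited, with differences of 1.08 and 1.01, and petC had no call. The summed signal of the 5, of which CAB2R had the largest difference, was 2999 and 3258 in UNM, 511 and 618 in BCP and 794 and 841 in TCP. The part of both tissues in the results below was not tested, and in these bulk samples fewer cells of a type and less RNA per cell cannot be told apart.

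Of the 53 homeobox probe sets, 20 changed in at least 1 comparison, and they belong to 17 of the 42 genes. The other 33 (62.3%) had no call in any comparison, against 42.3% of all single-gene probe sets. The highest of the 3 stage means was that of UNM for 13 of these 20 probe sets, of BCP for 4 and of TCP for 3, and the lowest was that of BCP for 13. The highest stage was not counted over all probe sets that changed. Falls also outnumbered rises among all single-gene probe sets, with 22.7% against 15.4% from UNM to BCP and 33.9% against 13.2% from UNM to TCP. Highest in UNM were probe sets of HOX4, HOX12, HOX14, HOX16, HOX22, HOX15, HOX9, HOX10, HOX33, WOX6, OSH1 and HOS66. Highest in BCP were those of HOX1, HOX2, HOX7 and WOX8, and highest in TCP, as deposited, those of OSH43 and a shared one of HOX16. Many members were dim. In UNM 21 of 53 probe sets (39.6%) were above background, against 61.4% of all single-gene probe sets. In BCP 9 of 53 (17.0%) were above background, against 48.9%, and in TCP also 9 of 53, against 39.2%. Background was lowest on the UNM arrays, so these counts rest on a different cut-off at each stage. For 31 probe sets, among them 7 of the 20 that changed, no stage was above background. Differences of such probe sets were measured below background, where levels are not told apart from it, so their size is uncertain.

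**Figure D1:**
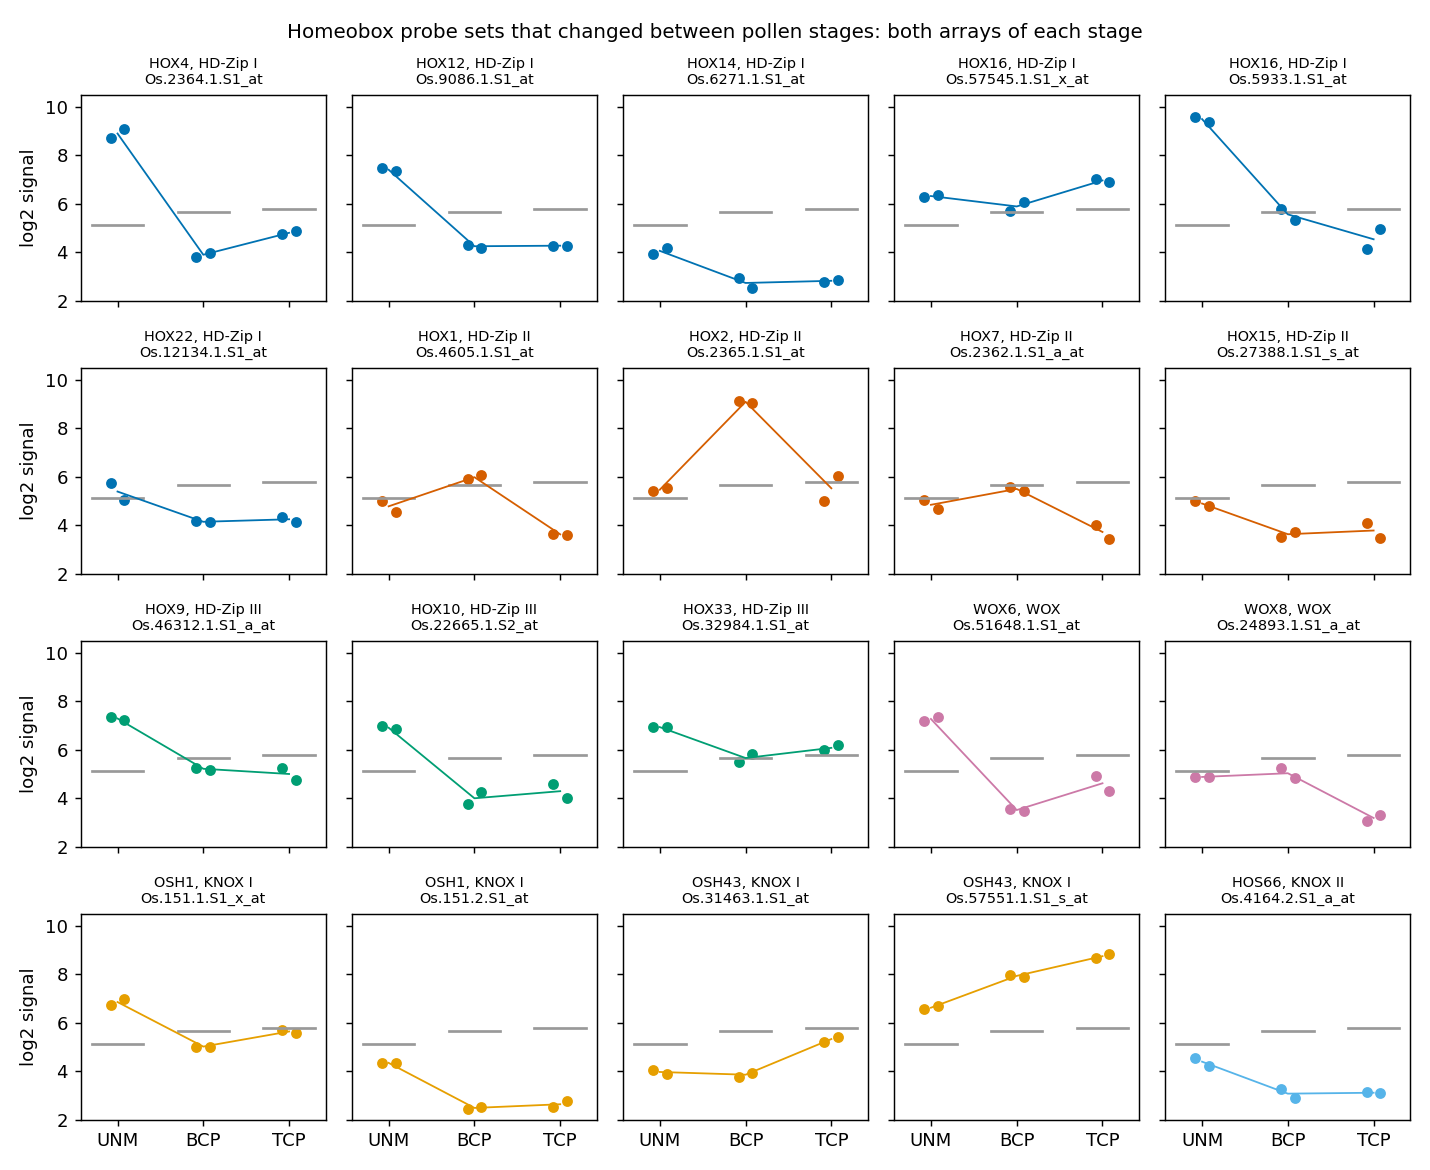
Log2 signal of the 20 homeobox probe sets that changed, in UNM, BCP and TCP. Points are the 2 arrays of a stage, coloured lines join the stage means, and grey bars mark background, the mean over both arrays of the 95th percentile of the reporter probe sets. HOX4 lies at 8.72 and 9.08 in UNM and between 3.82 and 4.87 on the other arrays, and HOX2 at 9.14 and 9.05 in BCP and between 5.01 and 6.05 elsewhere.

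Of the 16 probe sets of class I HD-Zip genes 5 fell and 0 rose from UNM to BCP, when 22.7% of all single-gene probe sets fell and 15.4% rose. HOX4 (gene 4347333), which in rice is known to lower the response to gibberellin, had signals of 8.72 and 9.08 in UNM, 3.82 and 3.99 in BCP and 4.75 and 4.87 in TCP. It was high only on the UNM arrays, and the UNM values did not overlap with any other. The fall from UNM to BCP was -5.00 (SE 0.16, adjusted p = 9.28e-07 by limma). HOX16 (gene 4330610) had signals of 9.60 and 9.40 in UNM, 5.80 and 5.33 in BCP and 4.13 and 4.95 in TCP on 1 of its 3 probe sets, and fell by 3.93 (SE 0.29) from UNM to BCP. A further fall from BCP to TCP (-1.03, SE 0.29, adjusted p = 0.0280) rested on single arrays. Without UNM replicate 1 or 2 the adjusted p by limma was 0.0540, without BCP replicate 1 the difference was -0.79 and without TCP replicate 1 it was -0.61, none of which passed. Over all alternatives tried, the adjusted p of this fall ran from 1.48e-11 to 0.162.

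HOX12 (gene 4331956), a regulator of panicle exsertion in rice, had signals of 7.48 and 7.34 in UNM, 4.31 and 4.20 in BCP and 4.28 and 4.27 in TCP. Its UNM arrays stood apart from the other 4, which lay between 4.20 and 4.31. It fell by 3.16 (SE 0.13, adjusted p = 2.12e-06) from UNM to BCP. HOX22 (gene 4336542), known for responses to drought and abscisic acid, had signals of 5.75 and 5.03 in UNM, 4.16 and 4.13 in BCP and 4.35 and 4.15 in TCP. It fell by 1.25 (SE 0.23) from UNM to BCP and by 1.14 (SE 0.23) from UNM to TCP, but without UNM replicate 1 these differences were -0.89 and -0.78 and did not pass. HOX14 (gene 4343726) was below background throughout, at 3.95 and 4.17 in UNM, 2.94 and 2.54 in BCP and 2.79 and 2.87 in TCP, and fell by 1.32 (SE 0.17) from UNM to BCP.

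The other class I genes, HOX5, HOX6, HOX8, HOX13, HOX20, HOX21 and HOX24, had no call, with stage means between 2.92 and 6.54 for the 10 class I probe sets without one. HOX5 (gene 4345576) was the least repeatable member. One of its probe sets gave 5.90 and 6.22 in UNM, 6.21 and 3.99 in BCP and 6.02 and 7.06 in TCP, and the gap of 2.22 between the BCP arrays was the widest of all homeobox probe sets in that stage. Without BCP replicate 1 its difference was -2.07 (SE 0.43) from UNM to BCP and 2.55 (SE 0.43) from BCP to TCP, and both then passed. HOX13 (gene 4331890) had signals of 5.64 and 6.10 in UNM, 5.56 and 5.34 in BCP and 6.48 and 5.63 in TCP, and its difference from BCP to TCP was 0.61, or 1.04 without TCP replicate 2, when it passed. HOX20 (gene 4345854) had 5.41 and 5.37 in UNM, 6.07 on both BCP arrays and 6.28 and 5.30 in TCP, so that the TCP arrays lay on either side of the others.

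Class II HD-Zip genes included HOX1, HOX2 and HOX7, which hold 3 of the 4 changed probe sets with their highest level in BCP. HOX2 (gene 4340070) had signals of 5.41 and 5.53 in UNM, 9.14 and 9.05 in BCP and 5.01 and 6.05 in TCP. Both BCP arrays stood more than 3 above all others, and the UNM and TCP arrays overlapped. HOX2 rose by 3.63 (SE 0.31, adjusted p = 7.42e-05 by limma) from UNM to BCP and fell by 3.57 (SE 0.31, adjusted p = 8.95e-05) from BCP to TCP, and its TCP-UNM difference was 0.06 (SE 0.31) as deposited and -1.43 after scaling by hybridization controls. In the RefSeq gene table HOX28 (gene 4340069), of the same class, is the next gene to HOX2 with 0 genes between them. HOX28 was below background on all arrays, between 3.45 and 4.07, with a difference of 0.08 (SE 0.17) from UNM to BCP.

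HOX1 (gene 4349388), which in rice has been linked to vascular cells, had signals of 5.01 and 4.56 in UNM, 5.90 and 6.07 in BCP and 3.66 and 3.60 in TCP. Its BCP arrays were the highest and its TCP arrays the lowest, with no overlap between stages. Only BCP was above background, so its difference from UNM to TCP was measured below that level. HOX1 rose by 1.20 (SE 0.18, adjusted p = 0.00137) and then fell by 2.36 (SE 0.18, adjusted p = 4.32e-05). The rise was 0.97 without UNM replicate 2, and the difference from UNM to TCP of -1.16 was -0.93 without UNM replicate 1, so that neither then reached the minimum difference. HOX7 (gene 4329705) had signals of 5.04 and 4.66 in UNM, 5.57 and 5.44 in BCP and 4.0 and 3.46 in TCP on 1 probe set, all below background. It fell by 1.78 (SE 0.22, adjusted p = 0.000582) from BCP to TCP. Its fall from UNM to TCP was -1.12, but -0.93 without UNM replicate 1 and -0.85 without TCP replicate 2, with no call.

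HOX15 (gene 4347946) had signals of 5.01 and 4.79 in UNM, 3.53 and 3.73 in BCP and 4.08 and 3.49 in TCP, all below background, on a probe set shared with other transcripts. It fell by 1.27 (SE 0.21) from UNM to BCP, and its difference from UNM to TCP was -1.11, or -0.82 without TCP replicate 2, when it did not pass. HOX11, HOX17, HOX19 and HOX28 had no call, and the 7 class II probe sets without one, 1 of them of HOX7, had differences between -0.40 and 0.67. Of the 11 class II probe sets 2 rose from UNM to BCP (18.2%, against 15.4% of all single-gene probe sets) and 3 fell from BCP to TCP (27.3%, against 25.5%), both near the share of other probe sets.

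Of 5 class III HD-Zip genes 3 fell from UNM to BCP, when 25.1% of all genes fell, counted with 1 probe set per gene. The same 3 were above background in UNM. The other 2 were below it on all arrays, where levels are not told apart from background. HOX9 (gene 4348919) had signals of 7.37 and 7.21 in UNM, 5.26 and 5.18 in BCP and 5.24 and 4.76 in TCP. It was above background in UNM alone, and fell by 2.07 (SE 0.18, adjusted p = 8.56e-05 by limma) from UNM to BCP and by 2.29 (SE 0.18) from UNM to TCP. HOX10 (gene 4331345) had signals of 6.97 and 6.84 in UNM, 3.76 and 4.24 in BCP and 4.58 and 4.0 in TCP on 1 of its probe sets, and fell by 2.91 (SE 0.24) from UNM to BCP. HOX33 (gene 4352777) had 6.92 and 6.95 in UNM, 5.50 and 5.82 in BCP and 5.98 and 6.18 in TCP. It fell by 1.28 (SE 0.16, adjusted p = 0.000509) from UNM to BCP and was again above background in TCP, with a TCP-UNM difference of -0.86 (SE 0.16) that is under the minimum.

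HOX29 (gene 4327348) and HOX32 (gene 4333544), a gene of leaf rolling in rice, were below background on all arrays. HOX29 lay between 3.45 and 3.66. HOX32 lay between 3.43 and 4.67, and its BCP-to-TCP difference was 0.67, or 1.04 (SE 0.31) without TCP replicate 1, when it passed.

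Of the WOX genes, WOX6 was the only one of 7 above background at any stage. WOX6 (gene 4332705), which in rice is known for a role in shoot gravitropism and tiller angle, had signals of 7.17 and 7.37 in UNM, 3.56 and 3.46 in BCP and 4.93 and 4.30 in TCP. The UNM arrays were the highest and the BCP arrays the lowest, with no overlap. It fell by 3.76 (SE 0.22, adjusted p = 1.10e-05 by limma) from UNM to BCP. From BCP to TCP it rose by 1.10 (SE 0.22, adjusted p = 0.00624), with both stages below background, but this difference was -0.13 after scaling by hybridization controls, 0.99 after quantile normalization and 0.96 after centring on the median. Without TCP replicate 1 it was 0.79, and none of these passed.

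WOX8 (gene 4327441), which the gene table also names OsWOX13, had signals of 4.86 and 4.90 in UNM, 5.23 and 4.83 in BCP and 3.08 and 3.30 in TCP. All were below background, and TCP was the lowest stage without overlap. WOX8 fell by 1.85 (SE 0.17, adjusted p = 0.000133) from BCP to TCP. WOX4, a gene of shoot meristem maintenance, WOX11, a gene of crown root formation, and WOX9, the quiescent-centre gene QHB of the root tip, had no call, nor had WOX7 and WOX10. With the second probe set of WOX6, their stage means lay between 3.29 and 5.12 and their differences between -0.27 and 0.23. The name WOX5 is carried in the gene table both by the gene called WOX9 here and by a gene that was not measured.

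Of the 5 measured class I KNOX genes OSH1 fell and OSH43 rose from UNM to BCP, the latter on 1 of its probe sets, and OSH3, OSH6 and OSH71 had no call. OSH1 (gene 4333973), the rice homolog of the maize gene knotted1 and a gene of shoot meristem maintenance, had signals of 6.72 and 6.98 in UNM, 5.01 on both BCP arrays and 5.72 and 5.56 in TCP on 1 probe set. On the other it had 4.33 and 4.35 in UNM, 2.46 and 2.51 in BCP and 2.51 and 2.76 in TCP, all below background. In both, the UNM arrays were the highest, and the falls from UNM to BCP were -1.84 (SE 0.14, adjusted p = 4.98e-05 by limma) and -1.86 (SE 0.14). OSH3 (gene 4333975), which is separated from OSH1 by 1 gene in the gene table, had 5.67 and 5.75 in UNM, 5.59 and 6.14 in BCP and 5.45 and 5.85 in TCP. These ranges overlapped, and the OSH3 difference was 0.16 (SE 0.22) from UNM to BCP.

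OSH43 (gene 4334261) was the only gene among the 42 that passed as a rise from UNM to TCP as deposited, and it had no call there after scaling by hybridization controls. Its probe set shared with other transcripts gave 6.56 and 6.67 in UNM, 7.97 and 7.89 in BCP and 8.66 and 8.83 in TCP. As deposited each stage was above the one before without overlap, and the rises were 1.31 (SE 0.13, adjusted p = 0.000174) from UNM to BCP and 2.13 (SE 0.13, adjusted p = 8.43e-06) from UNM to TCP. The other probe set, below background throughout, gave 4.03 and 3.90 in UNM, 3.77 and 3.94 in BCP and 5.22 and 5.43 in TCP. It rose by 1.47 (SE 0.14) from BCP to TCP and its difference from UNM to BCP was -0.11 (SE 0.14). OSH6 and OSH71 had no call and were below background on all arrays, between 2.94 and 3.98.

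Class II KNOX genes and the PHD finger homeobox gene HOX1A held the members with the steadiest high signals. HOS58 (gene 4328520) had signals of 9.17 and 9.33 in UNM, 9.27 and 8.99 in BCP and 9.82 and 9.95 in TCP. As deposited the TCP arrays were the highest, with a BCP-to-TCP difference of 0.76 (SE 0.15, adjusted p = 0.00636 by limma) that is under the minimum of 1. HOX1A (gene 4340565, also HAZ1) had 9.47 and 9.39 in UNM, 9.36 and 9.48 in BCP and 9.04 and 8.87 in TCP. The TCP arrays were the lowest, with a difference from UNM of -0.47 (SE 0.13, adjusted p = 0.0195), and the UNM and BCP arrays overlapped.

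HOS59 (gene 4341661) had signals of 6.63 and 6.83 in UNM, 5.93 and 5.71 in BCP and 6.30 and 5.98 in TCP, above background at every stage. Its difference from UNM to BCP was -0.91 (SE 0.17, adjusted p = 0.00408), and it passed as a fall without UNM replicate 1 (-1.01) or BCP replicate 1 (-1.02). HOS66 (gene 4331449) had 4.55 and 4.23 in UNM, 3.26 and 2.89 in BCP and 3.14 and 3.09 in TCP, all below background, and fell by 1.32 (SE 0.18, adjusted p = 0.000835) from UNM to BCP. OSH45 (gene 4345191), also below background, had 4.55 and 4.01 in UNM, 4.65 and 4.92 in BCP and 5.65 and 4.74 in TCP. Its difference from UNM to TCP was 0.92, or 1.38 without TCP replicate 2, when it passed.

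**Figure D2:**
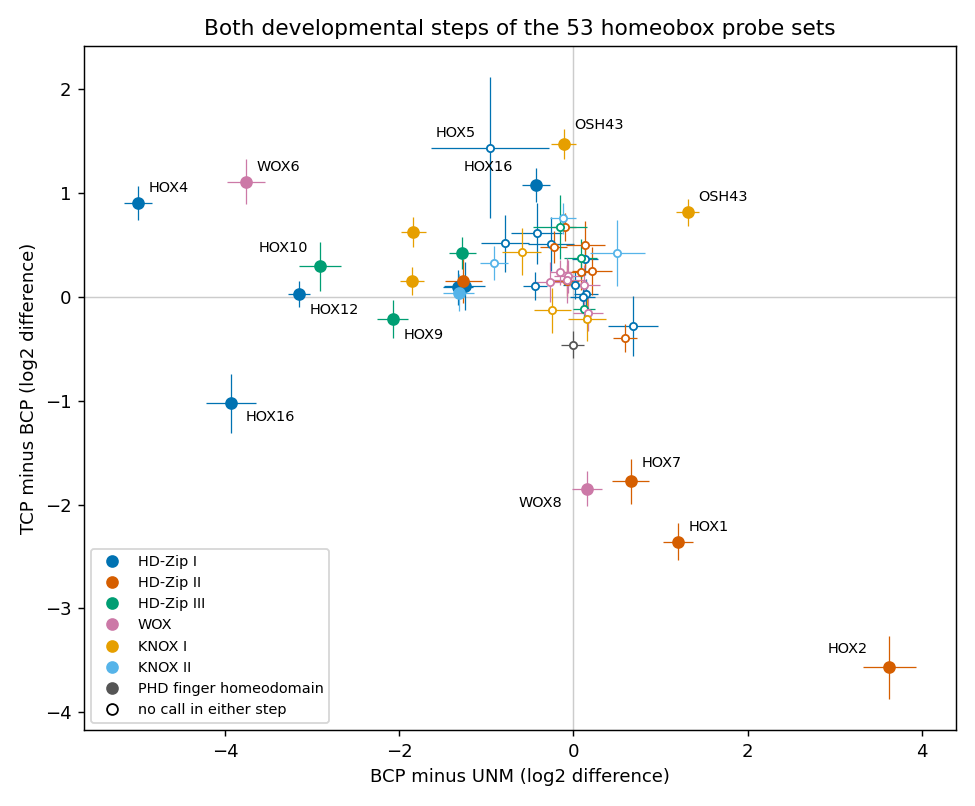
Log2 difference of BCP minus UNM (horizontal) and of TCP minus BCP (vertical) for the 53 homeobox probe sets, coloured by subfamily, with bars of 1 SE. Filled points had a call in at least 1 of both steps. HOX4 at -5.00 and HOX2 at 3.63 mark the ends of the first step, and HOX2 at -3.57 and OSH43 at 1.47 those of the second among probe sets with a call.

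Probe sets of the same gene often differed. Of the 42 genes 9 were measured by more than 1 probe set, and OSH1 was the only one with the same call from each of its probe sets in the step from UNM to BCP among the 5 such genes with a call there. For HOX16 the difference from UNM to TCP was -4.96 on the probe set described above and 0.64 on a shared one, which gave 6.28 and 6.37 in UNM, 5.70 and 6.09 in BCP and 7.04 and 6.90 in TCP. That shared probe set rose by 1.07 (SE 0.16, adjusted p = 0.00186 by limma) from BCP to TCP, or 0.88 without BCP replicate 1, 0.92 after centring on the median and -0.16 after scaling by hybridization controls, none of which passed, whereas the first probe set fell in the same step. The third probe set of HOX16 lay between 2.79 and 3.13.

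For HOX10 the 2 probe sets differed from UNM to BCP by -2.91 and 0.08, and for WOX6 by -3.76 and -0.06, and in both genes the second probe set was below background on all arrays. HOX7 had a shared probe set with 5.76 and 5.99 in UNM, 6.41 and 6.53 in BCP and 6.12 and 6.03 in TCP. Its BCP arrays were again the highest, but its difference from BCP to TCP was -0.40 (SE 0.14), against -1.78 on the other. HOX19 had a shared probe set above background in UNM and TCP, at 5.58 and 5.72 in UNM, 5.45 and 5.64 in BCP and 6.28 and 6.16 in TCP, and 2 further ones below background, and none of the 3 had a call. Which of the differing probe sets reports the gene was not tested.

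**Figure D3:**
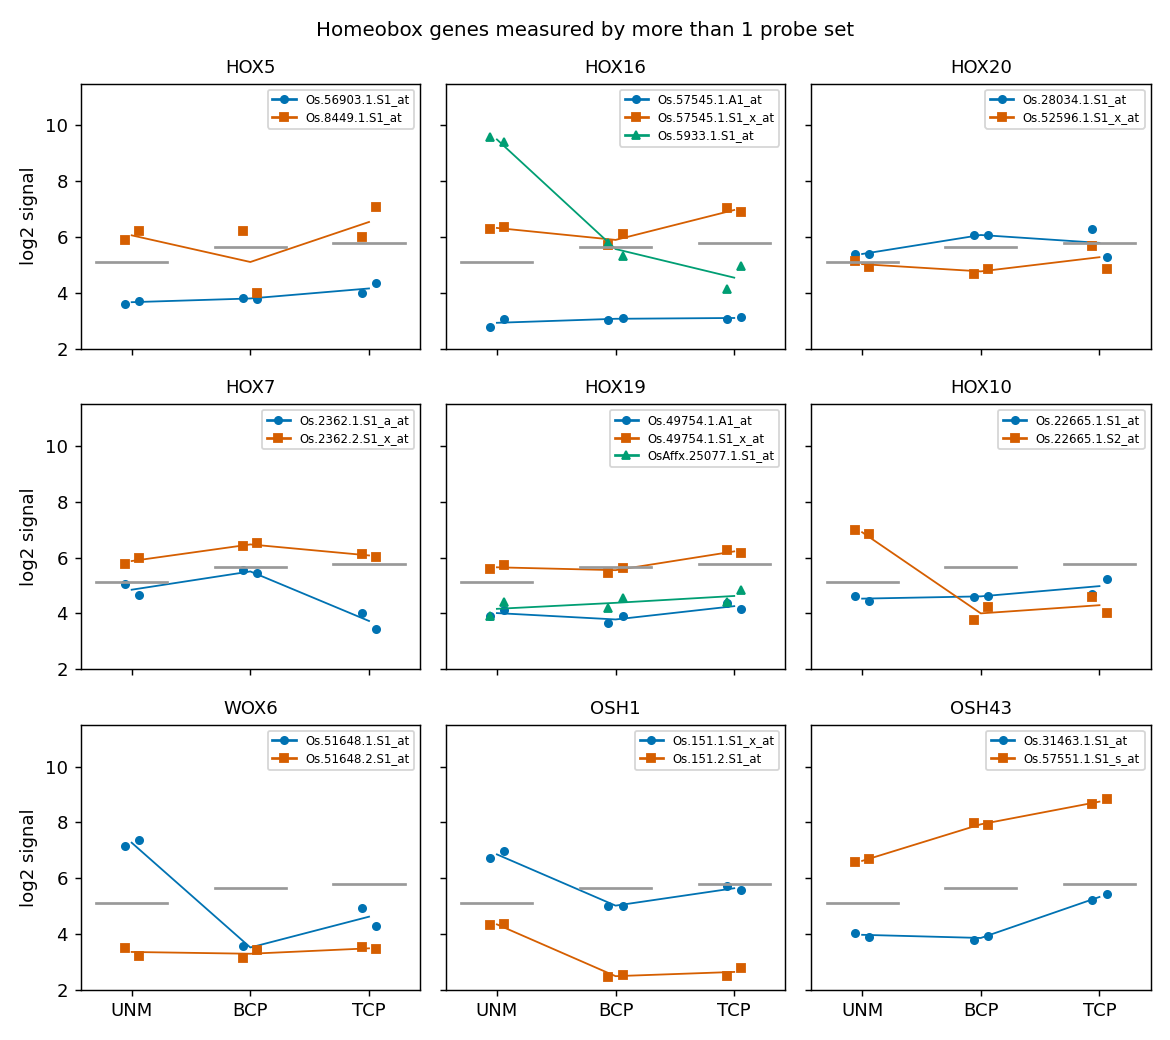
Log2 signal in UNM, BCP and TCP for the 9 homeobox genes measured by more than 1 probe set. Each colour and symbol is 1 probe set, points are arrays, lines join stage means, and grey bars mark background as above. The probe sets of OSH1 run in parallel from UNM to BCP, with differences of 0.62 and 0.15 from BCP to TCP. Those of HOX16 part between UNM at 9.60 and 6.28 and TCP at 4.13 and 7.04 on replicate 1.

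Counted over the 53 probe sets, 13 fell and 3 rose from UNM to BCP, together 16, when 38.2% of the 22436 single-gene probe sets and 21.6% of all probe sets tested changed. The falls were 24.5% of the members, against 22.7% of single-gene probe sets and 12.3% of all. The rises were 5.66%, against 15.4% and 9.27%. The members' median difference was -0.12, beside -0.07 over single-gene probe sets and 0.06 over all. The 13 falls had no overlap between the arrays of both stages, but they were called on the same arrays, so this adds no support. How many of all probe sets had no overlap was not counted. In 9 of the 13 falls UNM was above background, and in all 13 BCP was not, so the BCP levels of those falls are not told apart from background. The share of falls thus lay near that of other single-gene probe sets.

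From BCP to TCP 5 probe sets fell and 3 rose, when 33.3% of single-gene probe sets and 19.2% of all changed. The falls were 9.43% of the members, against 25.5% of single-gene probe sets and 13.3% of all, and the rises were 5.66%, against 7.76% and 5.94%. The median difference was 0.16, beside -0.01 over single-gene probe sets and 0.14 over all. In this step 44 of the 53 members were not above background in BCP, and 2 of the 5 falls began above it. The part of background in the share of falls was not tested. From UNM to TCP 15 fell and 2 rose, that is 28.3% and 3.77%, against 33.9% and 13.2% of single-gene probe sets and 17.9% and 12.1% of all. In that comparison 47.1% of single-gene probe sets and 29.9% of all changed. The comparisons share stages, so their counts are not independent.

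Among members with a call the most frequent combination was a fall from UNM to BCP and from UNM to TCP with no call between BCP and TCP. It was found for 10 members (18.9%), of HOX4, HOX12, HOX14, HOX22, HOX15, HOX9, HOX10, OSH1 and HOS66, and for 12.9% of all single-gene probe sets. No call in any comparison was found for 33 members (62.3%), against 42.3%. By the F test over the 3 stages 20 members changed (37.7%), against 57.6% of single-gene probe sets and 36.3% of all.

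The step from BCP to TCP depended on how the arrays were scaled, while the 13 falls from UNM to BCP passed under each of the 5 scalings, with 3 more falls and 2 rises in place of 3 after scaling by hybridization controls. The 21 hybridization controls, bacterial transcripts added before hybridization, moved the median difference of all probe sets from BCP to TCP from 0.14 as deposited to -1.09 when used for scaling, and from UNM to TCP from 0.20 to -1.30. Relative to those controls 28 members fell and 0 rose from BCP to TCP, and 44 fell and 0 rose from UNM to TCP. Of all 57194 probe sets tested, 33406 fell and 921 rose from BCP to TCP under the same scaling. From UNM to TCP 39685 of them fell and 1976 rose, so most probe sets moved down with the members. The rises of WOX6 and of the shared HOX16 probe set then turned to -0.13 and -0.16, and the OSH43 rise of 1.47 became 0.24. From UNM to TCP the OSH43 rises of 2.13 and 1.36 became 0.63 and -0.13, neither with a call, and HOX2 turned from 0.06 to -1.43. The falls of HOX1, HOX2, HOX7 and WOX8 from BCP to TCP passed under all 5 scalings, with differences of HOX2 between -4.80 and -3.28. The rises of HOX2 and OSH43 from UNM to BCP also passed under each, and the HOX1 rise was 0.94 after scaling by the controls, under the minimum. After centring on the 75th percentile 4 members rose and 8 fell from UNM to TCP, and in the step from BCP to TCP there were 5 rises and 4 falls. The differences from UNM to TCP of HOX14, HOX22, HOX1, HOX7, HOX15 and HOS66 and of the shared OSH1 probe set then lay between -0.92 and -0.75, under the minimum.

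**Figure D4:**
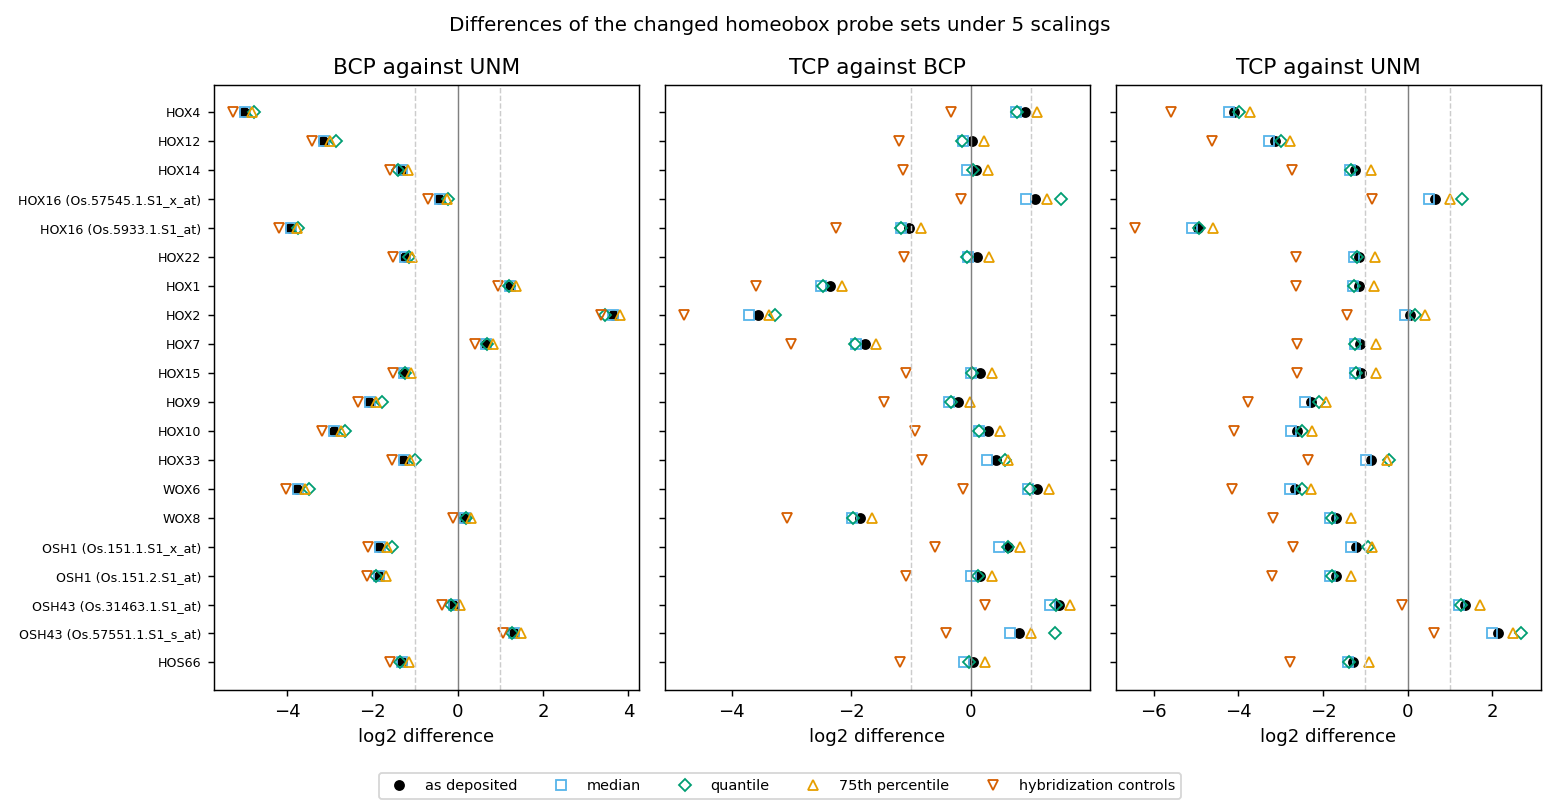
Log2 differences of the 20 changed homeobox probe sets in the 3 comparisons under 5 scalings of the arrays. Filled black points are the values as deposited, open symbols the other scalings, and dashed lines mark differences of 1. In the first comparison the symbols of each gene lie close together, and in the other two scaling by the hybridization controls moved all of them down, HOX2 in TCP against BCP from -3.57 to -4.80.

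Further homeobox families and genes known to act with these factors were counted with 1 probe set per gene. Of 8 class IV HD-Zip genes (ROC), known for the epidermis, 4 fell and 0 rose from UNM to BCP, and these and the next counts are to be read against 25.1% of all genes that fell and 17.1% that rose. Roc5, known for leaf rolling, went from 9.04 ± 0.13 in UNM to 6.02 ± 0.30 in BCP (SD, n = 2), and the differences of Roc6, Roc2 and Roc4 were -2.91, -2.40 and -1.35. Roc4 had a BCP-to-TCP rise of 1.52 as deposited, which was the only call of that family in that step. Values of the listed genes under the other scalings are not given here. Of 7 zinc finger homeodomain and MIF genes 1 fell, MIF1, from 7.0 ± 0.10 to 3.78 ± 0.23 (SD, n = 2), and the other 6 were above background, by both arrays, at none of the stages.

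Of 8 genes for enzymes of cytokinin activation (LOG and LOGL), a hormone whose synthesis class I KNOX proteins are known to promote, 2 rose and 3 fell from UNM to BCP, beside the same 17.1% and 25.1% of all genes. LOG fell from 9.48 ± 0.27 to 4.77 ± 0.05 and LOGL7 rose from 5.15 ± 0.09 to 8.42 ± 0.09 (SD, n = 2). LOGL1 was highest in BCP, with levels of 9.16 ± 0.01 in UNM, 11.52 ± 0.06 in BCP and 8.14 ± 0.02 in TCP. Of 6 type A response regulators of cytokinin signalling 1 rose and 2 fell in that step, and OsRR6 had a difference of -2.54. Both measured genes of the gibberellin oxidase list had no call and no stage with both arrays above background. OsRS2, the homolog of a repressor of KNOX genes in maize, fell by 1.86 (SE 0.35) from UNM to BCP, and FON1, a receptor kinase of floral meristem size, had a difference of -1.26 (SE 0.17) and also fell. No gene of the list of BELL partners of KNOX proteins was matched by name.

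The histone gene H2B.7 (gene 4324500), which the naming rule also found, had signals of 8.36 and 8.12 in UNM, 5.69 and 5.60 in BCP and 6.82 and 7.37 in TCP on a shared probe set. The UNM arrays were the highest and the BCP arrays the lowest. It fell by 2.59 (SE 0.20) and then rose by 1.44 (SE 0.20, adjusted p = 0.00119 by limma), or 0.21 with no call after scaling by the hybridization controls. Histone copies share sequence, so the signal may not be that of a single gene. The H2B.7 fall from UNM to TCP was -1.15, but -0.43 after quantile normalization and -0.79 after centring on the 75th percentile. Without TCP replicate 1 it was -0.88, and under all of these alternatives it was under the minimum difference.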

How the data were processed

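Log2 signals of each probe set were deposited for each array, and RMA is the tool named for them, per the submitters' processing notes, with no version. Which arrays entered RMA jointly is not given in the sources used here. Per the labels' protocols, 5 ug of total RNA entered the labelling of each sample. The table held 57381 probe sets, of which 187 control and reporter probe sets were left out of the tests. Genes were taken from GEO's platform annotation and named through the RefSeq gene table (assembly ASM3414082v1), and all 17905 gene IDs matched. No coordinates and no sequences were used. The stage differences came from limma 3.58.1 (R 4.3.3), fitted once to all 6 arrays with 1 mean per stage (residual degrees of freedom 3, prior 3.87), which was tested on simulated data. Tests were two-sided. Every member is named, those that changed with all arrays and the others by range, except a few given with all arrays after their values were seen; listed genes outside the family are named only where they changed. Subfamilies were assigned from general knowledge. Members, lists, tests and alternatives were chosen with earlier results of these data known. 3 name collisions (a cystatin, an aquaporin and a GH3 gene) were removed from the marker lists, after which no marker of sperm cells remained. The labels call the replicates biological, and p-values cover only the spread between them.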

Additional observations from a re-analysis of the deposited data

How the results depend on the processing

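The alternatives were 4 other scalings, filters on dim or shared probe sets, 1 probe set per gene, limma with a robust prior or an intensity trend, other minimum differences, a replicate block, only the stages compared, each array left out, and names ending after the digits. With the replicate block 16, 8, 17 and 20 members were called from UNM to BCP, BCP to TCP, UNM to TCP and by the F test, as without it, and no call changed. Deviations from the stage means did not follow the replicate numbers (r of -0.05, -0.07 and 0.01 between stages), so the numbers were not taken to pair the arrays. After scaling by the hybridization controls 28 changed from BCP to TCP, 44 from UNM to TCP and 45 by the F test. With dim probe sets left out, when 22 members were tested, 5, 10 and 13 did, and with 1 probe set per gene 5 changed from BCP to TCP. With no minimum 14 changed from BCP to TCP and 26 from UNM to TCP, and with a minimum of 2 the counts were 7, 2, 7 and 9. Leaving out each array gave 15 to 18, 7 to 9, 14 to 17 and 20 to 22. From BCP to TCP, rises made up 37.5% of the calls as deposited, 16.7% after median centring, 44.4% after quantile normalization, 55.6% with the 75th percentile as the centre and 0 with the controls, and from UNM to TCP 11.8%, 11.8%, 17.6%, 33.3% and 0. Over all probe sets tested the shares, in the same order, were 30.9%, 23.2%, 45.5%, 44.9% and 2.68% from BCP to TCP. From UNM to TCP they were 40.3%, 33.7%, 48.3%, 60.7% and 4.74%. Scaling by the controls shifts all probe sets of an array alike, and so turned the sign of 2 called rises from BCP to TCP, the shared HOX16 probe set (-0.16) and WOX6 (-0.13), and of the OSH43 rise (-0.13) from UNM to TCP. Among the 20 changed probe sets it also turned differences with no call. From BCP to TCP these were HOX4 -0.33, HOX12 -1.21, HOX14 -1.14, HOX22 -1.13, HOX15 -1.08, HOX10 -0.94, HOX33 -0.81, HOS66 -1.19, both OSH1 probe sets (-1.08 and -0.61) and the shared OSH43 probe set (-0.42). From UNM to TCP they were HOX2 (-1.43) and the shared HOX16 probe set (-0.85), and from UNM to BCP WOX8 (-0.11). The other scalings turned no called difference. Levels below background are not told apart from it, so differences there are uncertain, and 2 arrays a stage limit every test.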
